A study of Mus musculus with 112 samples.

Results

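The animals described here are 24 mice that stand at the ends of the range of the circadian output gene Dbp in their control limb. They were selected on measured values: Dbp levels in CPM (the count of a gene divided by the total count of its library, scaled to 1000000 reads) were ranked over the control gastrocnemius of 46 of the 56 mice of the study, 10 mice being left out by the selection rule. The 12 highest limbs form the Dbp-high group and the 12 lowest the Dbp-low group, which is 24 of 56 control limbs and of 112 libraries. All animals were Diversity Outbred mice of 16 weeks, an outbred stock in which each animal has its own genotype, with no transgene or drug. Each had worn a cast on 1 hind limb for 3 weeks. The left limb was always the control and the right always immobilized. Side and treatment cannot be told apart, and every control limb came from an animal that carried a cast. The Dbp-high group held 6 females and 6 males, and the Dbp-low group 5 females and 7 males. By animal number, 5, 4 and 3 Dbp-high animals and 3, 4 and 5 Dbp-low animals fell into the blocks 1-20, 21-40 and 41-59. The time of day at which muscle was taken is not given in the sources used here.

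In nearly every cell, the circadian clock runs as a loop of transcription and repression. The activators BMAL1 (gene Arntl) and CLOCK bind E-boxes and switch on the Per and Cry genes, whose proteins then block them, while the REV-ERB receptors repress and the ROR receptors activate Arntl through ROR elements. DBP and its relatives TEF and HLF carry the rhythm to D-box genes, where the repressor NFIL3 binds the same element, and in skeletal muscle the clock is known for timing fuel use. Dbp and Arntl are known to peak at opposite phases.

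The promoters of the genes on which the results turn are shown because they carry the letters of these elements. Windows of 300 bases, from 250 before to 50 after a RefSeq transcript start on GRCm38.p6, were searched on both strands for the E-box CACGTG, the D-box TTATGTAA and the ROR element TAGGTCA; none of these motifs overlaps another. Of the 29 clock genes listed for this report, 23 had a window. The E-box stood in at least 1 window of 5 of these 23 genes, against 8.09% of all 27025 genes with a window (7.15% of 32851 windows). For the D-box it was 1 gene, against 1.11% of genes (0.938% of windows), and for the ROR element 2 genes, against 2.97% (2.61% of windows). Arntl has 2 windows, and the one not shown holds no ROR element. A match is a description of letters, not a bound site. Capitals mark the motif, and positions count from 1 at the 5′ end of the window. The minus-strand windows are printed in the direction of transcription.
Ciart (chr3:95882179-95882478, minus strand; E-boxes at 135, 193 and 207): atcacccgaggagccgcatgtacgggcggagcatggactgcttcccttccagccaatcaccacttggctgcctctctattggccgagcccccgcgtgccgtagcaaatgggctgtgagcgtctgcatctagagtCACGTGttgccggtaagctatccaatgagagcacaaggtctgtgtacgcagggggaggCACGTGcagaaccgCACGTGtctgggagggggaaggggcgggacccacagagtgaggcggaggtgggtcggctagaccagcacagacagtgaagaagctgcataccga
Per3 (chr4:151044616-151044915, minus strand; D-boxes at 46 and 93): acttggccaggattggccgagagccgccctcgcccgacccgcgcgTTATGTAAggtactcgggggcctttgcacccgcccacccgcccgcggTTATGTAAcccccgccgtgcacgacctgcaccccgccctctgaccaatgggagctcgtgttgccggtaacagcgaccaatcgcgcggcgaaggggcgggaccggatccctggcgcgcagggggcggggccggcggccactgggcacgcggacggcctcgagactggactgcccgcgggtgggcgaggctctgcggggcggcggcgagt
Arntl (chr7:113207261-113207560, plus strand; ROR element at 281): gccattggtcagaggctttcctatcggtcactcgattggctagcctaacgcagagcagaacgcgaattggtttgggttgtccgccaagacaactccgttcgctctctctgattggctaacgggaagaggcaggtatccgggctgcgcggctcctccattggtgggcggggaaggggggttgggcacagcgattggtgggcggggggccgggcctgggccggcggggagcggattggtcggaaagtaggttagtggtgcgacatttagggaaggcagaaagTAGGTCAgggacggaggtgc
Nfil3 (chr13:52980990-52981289, minus strand; ROR element at 239, on the opposite strand): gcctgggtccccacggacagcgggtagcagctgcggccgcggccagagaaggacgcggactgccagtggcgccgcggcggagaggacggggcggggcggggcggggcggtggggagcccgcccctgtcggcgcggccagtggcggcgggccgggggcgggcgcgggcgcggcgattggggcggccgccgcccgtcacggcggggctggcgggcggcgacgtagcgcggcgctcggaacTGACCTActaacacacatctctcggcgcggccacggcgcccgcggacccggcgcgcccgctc
Ppp1r3c (chr19:36736555-36736854, minus strand; E-box at 147): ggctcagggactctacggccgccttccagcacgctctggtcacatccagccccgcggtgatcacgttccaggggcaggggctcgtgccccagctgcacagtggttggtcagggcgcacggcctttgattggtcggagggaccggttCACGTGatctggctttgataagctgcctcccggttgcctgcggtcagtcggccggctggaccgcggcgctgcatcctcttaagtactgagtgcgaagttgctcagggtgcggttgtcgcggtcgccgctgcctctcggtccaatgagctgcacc
The windows of Dbp and Lrrc30 held none of the 3 motifs. Among the other clock genes, Per1, Cry1, Bhlhe41 and Tef held an E-box.

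Total counts ran from 2555619 to 5234076 in Dbp-high control limbs and from 1716485 to 6070437 in Dbp-low ones, and from 3129415 to 5836341 and from 2101781 to 9995936 in their immobilized limbs. The tissue label was checked against its markers: the 14 fast-fibre and fibre-body genes, from Acta1 to Ttn, had counts in all 48 libraries, and their sum had medians of 199000 and 198000 CPM in the control limbs of the Dbp-high and Dbp-low groups. Their medians were 182000 and 220000 CPM in the immobilized limbs, where 12 of the 14 genes were below 0 in the fold change (median -0.18). In the fold change, all 8 slow-fibre markers were below 0 in the control limb (median -0.63) and 7 of 8 above 0 in the immobilized limb (median 0.31). None was past an unadjusted p of 0.05. The medians of their sum went the other way, so no direction is given for them. They were 3270 CPM in Dbp-high against 2250 CPM in Dbp-low control limbs, and 2480 against 3040 CPM in the immobilized limbs. Sums spread from 138 to 10900 CPM in Dbp-high control limbs and from 140 to 14000 CPM in their immobilized limbs. In the immobilized limbs, 4 Dbp-high libraries stood apart. Animal 30 held 12000 CPM of 11 keratin genes, which mark skin, against at most 7.38 CPM in the other 23 immobilized limbs. Animals 31 and 37 had macrophage marker sums of 1980 and 1080 CPM against 53.5 to 389 in the Dbp-low limbs, and animals 31 and 47 had adipocyte sums of 6400 and 5900 CPM against 127 to 2280. All 10 macrophage markers had counts in every immobilized limb. Of the 6 neutrophil markers, Ly6g and Mpo were at 0 in 23 of 24 limbs and the other 4 in 5 or 6, and their sum was 187 CPM in animal 30 against at most 7.65 in Dbp-low limbs. Counts of called genes in the immobilized limb, the called genes and the lists that moved are given with and without these 4 libraries. On 150 genes that differ between animals, the control limb of male 15 matched the immobilized limb of male 16 best and the reverse, while 22 of the 24 animals matched themselves. Both were Dbp-low males of block 1-20, so an exchange between them leaves the group comparison within each limb unchanged, and values without them are given below. In bulk muscle, fewer cells of a type and less RNA per cell cannot be told apart.

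Dbp in the control limb spanned 47.0 to 145 CPM in the Dbp-high group (median 69.3), 13.1 to 44.5 CPM in the 22 animals between the groups (median 26.4) and 5.07 to 11.5 CPM in the Dbp-low group (median 9.81). These values chose the groups and are a description. The counts behind them were 181 to 620 and 18 to 67 reads. At the upper threshold, male 59 with 47.0 CPM was in and female 9 with 44.5 CPM was out, and at the lower one male 36 with 11.5 CPM was in and male 40 with 13.1 CPM was out, so neither threshold fell in a gap.

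The immobilized limb, which the rule did not use, kept the order. There Dbp ran from 55.3 to 124 CPM in the Dbp-high animals (median 71.9), from 4.72 to 115 CPM in the middle animals (median 36.5) and from 6.50 to 30.9 CPM in the Dbp-low animals (median 11.4). No Dbp-high limb overlapped a Dbp-low limb, and Dbp was the 1 gene of 11841 tested of which this held (0.00845% of them). The log2 fold change was 2.34 ± 0.22 (SE, 12 against 12 animals; edgeR adjusted p = 3.5e-06). Of the 12 Dbp-high animals, 9 were also among the 12 highest immobilized limbs, and 9 of the 12 Dbp-low animals were among the 12 lowest. The exceptions included Dbp-low females 50 and 1 and male 36, whose immobilized limbs held 30.9, 19.8 and 28.4 CPM. Female 24, of middle rank with 28.4 CPM in the control limb, had 4.72 CPM in the immobilized limb, the lowest of all 46.

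**Figure D1:**
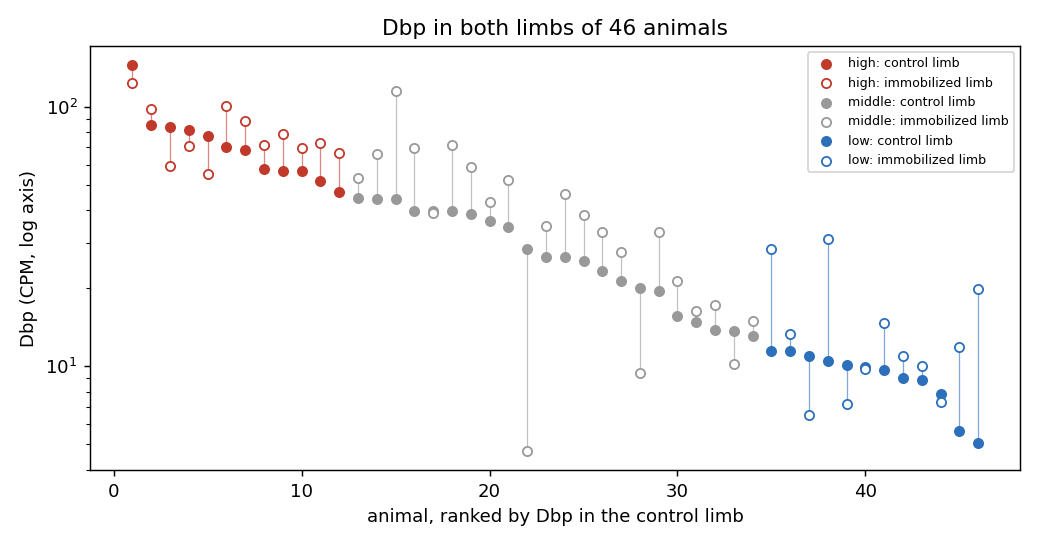
Dbp in CPM on a log axis for 46 animals ordered by their control-limb value, with filled points for the control limb, open points for the immobilized limb and a line joining the limbs of an animal. The open points of the 12 Dbp-high animals sit between 55.3 and 124 CPM, above all open points of the 12 Dbp-low animals, and female 24 at rank 22 drops to 4.72 CPM.

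Across all 46 animals, log2 CPM of Dbp in the control limb and in the immobilized limb correlated with Pearson's r = 0.84 and Spearman's rho = 0.87. The two-sided permutation p was 1e-05 for both, the smallest that 100000 resamples can give, or 9e-05 and 0.00013 after adjustment over the 27 relations computed. Without the 2 animals farthest from the median r was 0.85. It was 0.78 within females and 0.90 within males, and 0.90, 0.72 and 0.91 within the number blocks. The other relations set control-limb Dbp against other clock genes of the immobilized limb, without covariates. The adjusted permutation p of r was below 0.05 for Arntl (r = -0.76), Nfil3 (-0.56), Cry1 (-0.45), Clock and Npas2 (-0.39 each). So it was for Per3 (0.64), Bhlhe40 (0.54), Cry2, Ciart and Nr1d2 (0.51 each), Per2 (0.49), Usp2 (0.38) and Nr1d1 (0.34). Hlf, at 0.33, passed by r and not by rho. Rora, Per1, Bhlhe41, Tef, Gsk3b, Btrc, Fbxw11 and the Csnk genes were above 0.05.

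Next, all other genes were compared between the groups. In the control limb, where the groups were selected on Dbp in the same libraries, edgeR's threshold of an adjusted p of 0.05 was passed by 3 of 11574 genes (0.0259%): Arntl and Nfil3 were lower and Bhlhe40 was higher in Dbp-high limbs. Nothing is supported by these calls, and they are given for orientation. In the immobilized limb, 5 of 11841 genes (0.0422%) passed: Dbp rose with the control-limb value, and Arntl, Nfil3, Ppp1r3c and Lrrc30 fell. All 5 passed in each of 24 fits that left out 1 animal. When Dbp was ranked within each sex and number block, again 12 against 12 animals, Dbp alone passed, with Arntl at an edgeR adjusted p of 0.78 and Nfil3, Ppp1r3c and Lrrc30 at 0.22 each. Without the 4 Dbp-high animals whose immobilized limbs stood apart, 5 genes passed, of which 4 were the same. The other was Wsb1, at -1.27 ± 0.21 (edgeR adjusted p = 0.027). Lrrc30 was then at -0.85 ± 0.18 (edgeR adjusted p = 0.18).

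Of the 29 clock genes, 27 passed the filter on low counts in the immobilized limb, and Rorb and Fbxl21 did not. Dbp was called higher and Arntl and Nfil3 lower. At an unadjusted p of 0.05, 8 of the 27 clock genes were higher and 6 lower, while 6.4% of all tested genes were higher and 4.62% lower at that level. The median log2 fold change of the clock genes was 0.03, beside 0.02 over all genes, since members moved to both sides. The clock genes are taken below by role.

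Among the activators, Arntl encodes BMAL1, the partner of CLOCK. In the control limb its level was 3.51 to 21.1 CPM in Dbp-high animals (median 10.8) and 16.9 to 37.9 CPM in Dbp-low animals (median 30.0), with the middle animals between them at a median of 20.2 CPM. Immobilized limbs held 5.43 to 17.1 CPM (median 10.9) in Dbp-high and 16.7 to 42.2 CPM (median 25.9) in Dbp-low animals. Among immobilized limbs, 11 of 12 Dbp-high animals were below every Dbp-low animal, and male 18 was the exception. Its log2 fold change was -1.36 ± 0.21 in the control limb and -1.40 ± 0.20 in the immobilized limb (edgeR adjusted p = 0.0014). Mean differences in log2 CPM in the immobilized limb were -1.33 within females and -1.24 within males, and -1.6, -1.28 and -0.9 in the 3 number blocks.

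Npas2, a relative of Clock that can take its place beside BMAL1, was low throughout. Its immobilized-limb level was 0 to 2.74 CPM in Dbp-high animals (median 1.16) and 0.424 to 7.43 CPM in Dbp-low animals (median 2.39), and the groups overlapped. Npas2 had a log2 fold change of -1.22 ± 0.44 in the control and -1.13 ± 0.45 in the immobilized limb (edgeR adjusted p = 0.39). Clock itself was at -0.29 ± 0.15 and -0.35 ± 0.11 (edgeR adjusted p = 0.34 in the immobilized limb). Rora, a ROR receptor, was at 0.32 ± 0.16 in the control and -0.07 ± 0.15 in the immobilized limb, a value whose sign turned under several alternatives. All 5 tested activators had negative values in the immobilized limb, and 1 of them passed between the groups.

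The repressors pointed the other way in most cases, with 6 of 8 positive in both limbs. In the immobilized limb none passed the adjusted threshold between the groups. Per3, a period gene, was 8.30 to 21.2 CPM (median 13.8) in Dbp-high and 3.79 to 15.2 CPM (median 8.54) in Dbp-low control limbs. Immobilized limbs held 9.02 to 34.1 CPM (median 16.8) against 5.80 to 12.7 CPM (median 10.5), and 8 of 12 Dbp-high animals were above every Dbp-low animal. Its log2 fold change was 0.77 ± 0.15 in the control and 0.65 ± 0.17 in the immobilized limb (edgeR adjusted p = 0.25). Within females and males the immobilized-limb difference was 0.76 and 0.65. Per2 was at 0.83 ± 0.28 and 0.73 ± 0.25 (edgeR adjusted p = 0.36), with immobilized-limb medians of 13.2 and 6.63 CPM and overlapping groups.

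Per1, the period gene that also answers acute stimuli, did not share this pattern. Its levels spread from 17.1 to 139 CPM in Dbp-high and from 27.0 to 130 CPM in Dbp-low immobilized limbs, and its log2 fold change was -0.05 ± 0.28 in the control and -0.24 ± 0.24 in the immobilized limb. The cryptochromes, which bind and block the BMAL1 complex, differed from each other in sign. Cry2 was at 0.60 ± 0.13 in the control and 0.37 ± 0.14 in the immobilized limb, and Cry1 at -0.72 ± 0.18 and -0.51 ± 0.16 (edgeR adjusted p = 0.38 and 0.34 in the immobilized limb). After immobilization 8 of 12 Dbp-high animals had less Cry1 than every Dbp-low animal.

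Ciart, a repressor of the BMAL1 complex whose promoter above holds 3 E-boxes, had the largest positive estimate of the clock genes after Dbp in the immobilized limb. Its level there was 1.66 to 19.5 CPM in Dbp-high animals (median 6.69) and 0.346 to 7.27 CPM in Dbp-low animals (median 1.65). The log2 fold change was 1.37 ± 0.36 in the control and 1.67 ± 0.39 in the immobilized limb (edgeR adjusted p = 0.14), and 6 of 12 Dbp-high animals were above every Dbp-low one. Bhlhe40, which encodes the repressor DEC1 that competes for E-boxes, was 102 to 171 CPM (median 121) against 50.8 to 167 CPM (median 76.0) in the control limb, where the Dbp-low male 53 held 167 CPM and the groups overlapped. The immobilized limb held 94.3 to 245 CPM (median 145) against 38.7 to 142 CPM (median 80.5), at 0.69 ± 0.16 (edgeR adjusted p = 0.14). Its control-limb call was seen in 4 of 24 fits that left out 1 animal. Its relative Bhlhe41 was at 0.68 ± 0.19 in the control but 0.11 ± 0.19 in the immobilized limb.

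**Figure D2:**
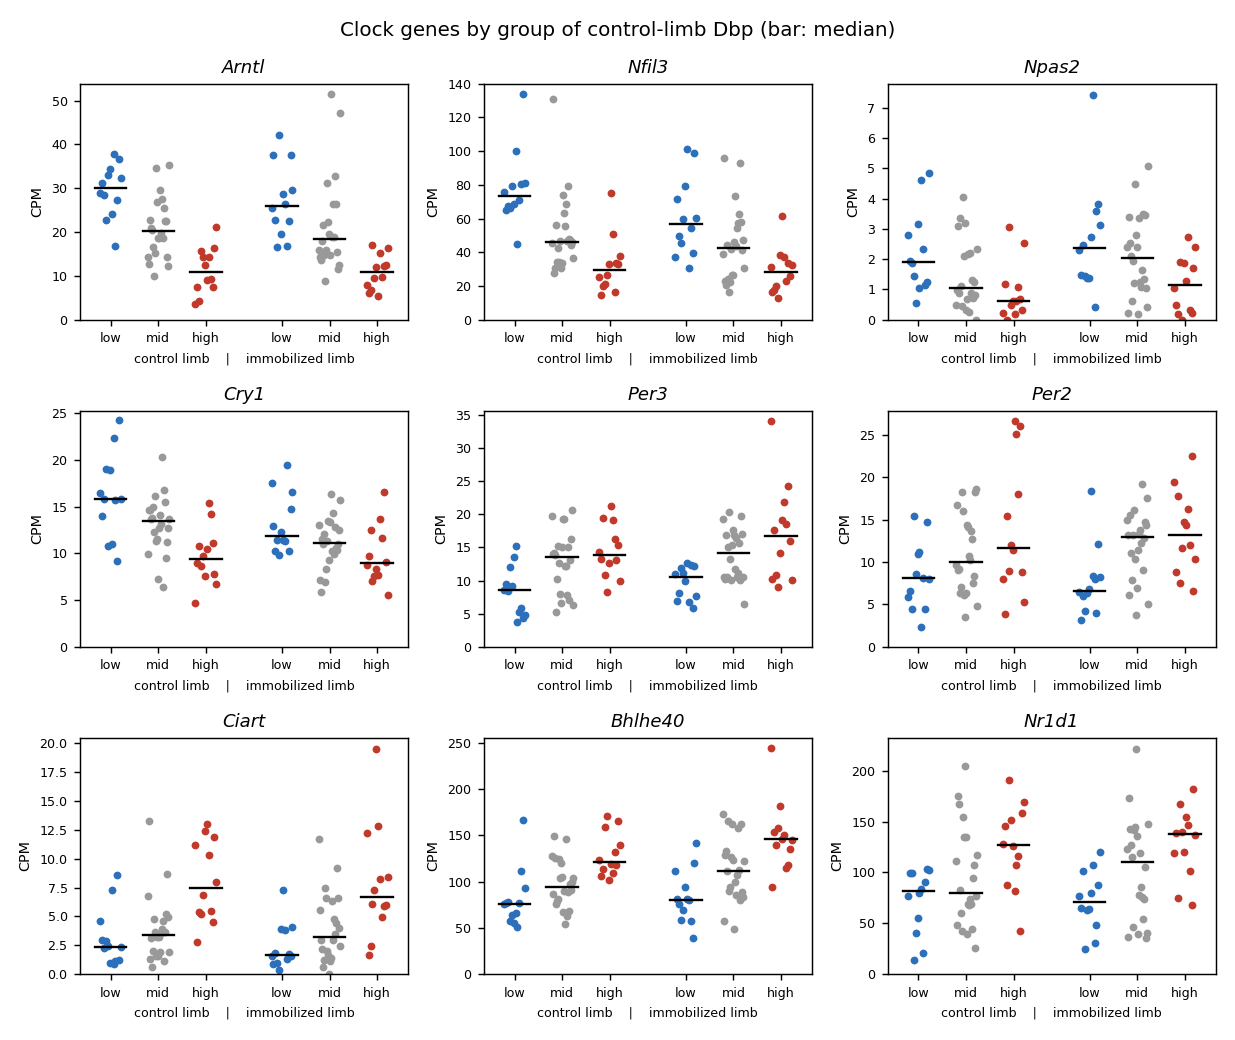
Levels in CPM of 9 clock genes by animal, grouped as Dbp-low, middle and Dbp-high by the control limb, with the control limb on the left and the immobilized limb on the right of each panel and a bar at the median. Arntl medians step down from 25.9 to 10.9 CPM between Dbp-low and Dbp-high in the immobilized limb, and Ciart medians step up from 1.65 to 6.69 CPM.

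The REV-ERB receptors, the repressors of Arntl and Nfil3, were higher in both limbs by estimate. Nr1d1 was 42.0 to 191 CPM (median 127) in Dbp-high and 13.5 to 103 CPM (median 81.5) in Dbp-low control limbs. Immobilized limbs held 68.2 to 182 CPM (median 138) against 24.3 to 120 CPM (median 70.8), with 8 of 12 Dbp-high animals above every Dbp-low animal. This gave log2 fold changes of 0.92 ± 0.24 and 0.77 ± 0.21 (edgeR adjusted p = 0.32 in the immobilized limb). Nr1d2 was at 0.49 ± 0.10 and 0.32 ± 0.14 (edgeR adjusted p = 0.41), so neither receptor passed in the comparison of 12 with 12 animals. Over the 46 animals, the permutation test of r with control-limb Dbp gave an adjusted p of 0.036 for Nr1d1 and 0.0015 for Nr1d2.

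Among the PAR bZIP factors and their antagonist, Nfil3 mirrored Dbp. NFIL3 binds D-boxes as a repressor. Nfil3 was 14.5 to 75.3 CPM (median 29.6) in Dbp-high and 45.0 to 134 CPM (median 73.4) in Dbp-low control limbs. The immobilized limbs ran from 12.9 to 61.4 CPM (median 28.6) against 30.6 to 101 CPM (median 57.1), and 6 of 12 Dbp-high animals were below every Dbp-low one. Male 31 was the Dbp-high animal with most Nfil3 in both limbs. The log2 fold change was -1.22 ± 0.20 in the control and -1.11 ± 0.17 in the immobilized limb (edgeR adjusted p = 0.0023). The immobilized-limb difference was -0.76 within females and -1.28 within males, and -1.42, -0.85 and -0.77 in the number blocks. Arntl and Nfil3 were the 2 clock genes with a ROR element in a window.

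The relatives of Dbp did not follow it closely. Hlf was at 0.73 ± 0.20 in the control and 0.46 ± 0.23 in the immobilized limb (edgeR adjusted p = 0.46), with medians of 12.4 and 8.00 CPM and overlapping groups in the latter. The immobilized-limb difference in Hlf was 1.15 within females and 0.03 within males; the sexes were not called different. Tef was at 0.27 ± 0.11 and -0.02 ± 0.16, with medians of 201 and 190 CPM in the immobilized limb.

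Kinases and ubiquitin ligases set how long PER and CRY proteins last. Of the 8 tested in the immobilized limb, 4 were above and 4 below 0 and none passed between the groups. Usp2, a clock-controlled deubiquitinase, was at 0.34 ± 0.13 and 0.20 ± 0.14. Casein kinases Csnk1d, Csnk1e and Csnk2a1 lay between -0.12 and 0.15 in the immobilized limb, Gsk3b was at 0.03 ± 0.10, and the ligases Btrc and Fbxw11 were at -0.06 ± 0.11 and -0.08 ± 0.09.

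**Figure D3:**
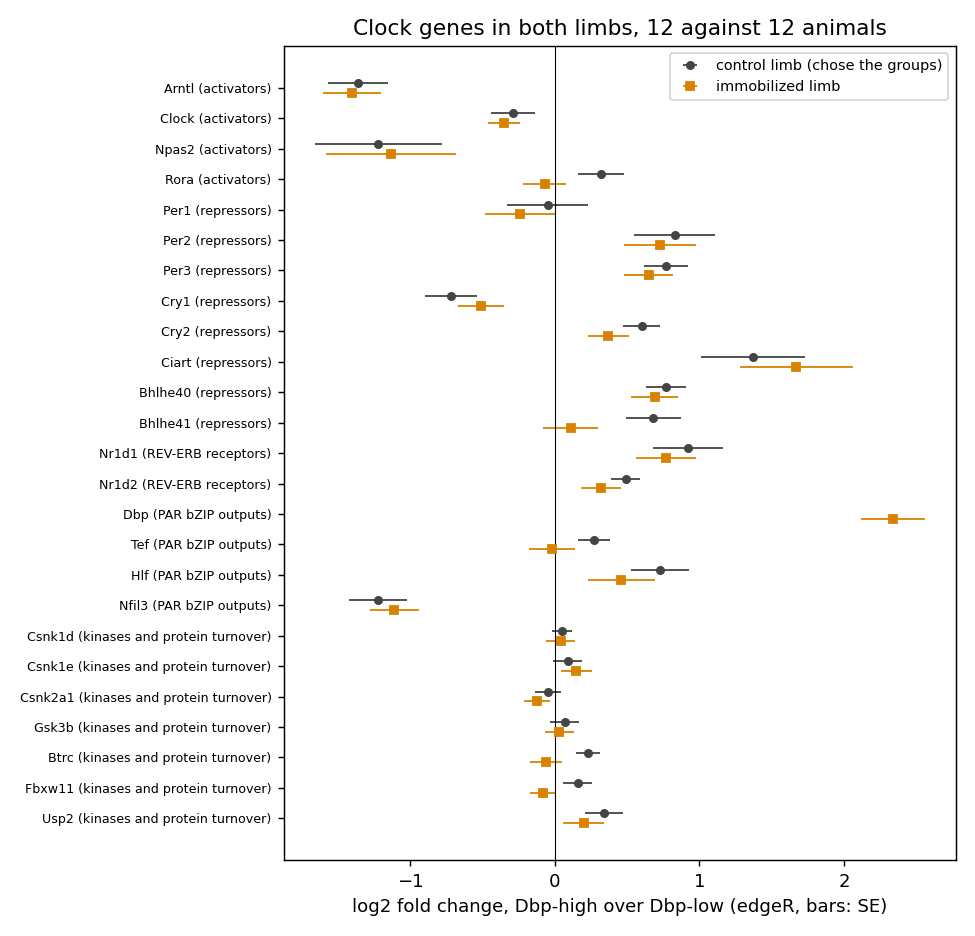
Log2 fold change of 25 tested clock genes, Dbp-high over Dbp-low, with bars of 1 SE, in the control limb that chose the groups (circles) and in the immobilized limb (squares). Arntl, Npas2, Nfil3 and Cry1 lie left of 0 in both limbs, Ciart, Nr1d1, Bhlhe40, Per2 and Per3 lie right of it, and the kinases and turnover genes sit near it.

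Outside the clock list, 2 genes passed the test in the immobilized limb. Ppp1r3c encodes a glycogen-targeting subunit of protein phosphatase 1 that promotes glycogen storage, and its window above holds an E-box. Its immobilized-limb level was 258 to 792 CPM (median 446) in Dbp-high, 342 to 1880 CPM (median 680) in middle and 642 to 1160 CPM (median 1030) in Dbp-low animals. Male 59 with 792 CPM was the 1 Dbp-high animal that reached the Dbp-low range, and female 49 with 642 CPM was the 1 Dbp-low animal that it overlapped. The log2 fold change was -1.22 ± 0.14 (edgeR adjusted p = 4e-05). It was -1.07 within females and -1.27 within males, and -1.36, -1.22 and -0.85 in the number blocks. Without the 4 libraries that stood apart it was -1.08 ± 0.16 (edgeR adjusted p = 0.0082).

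In the control limb Ppp1r3c ran from 299 to 1350 CPM (median 543) in Dbp-high and from 688 to 1370 CPM (median 931) in Dbp-low animals, and the estimate was -0.63 ± 0.21. By number block the difference in mean log2 CPM there was -1.57, -0.33 and -0.1, so it was uneven. Dbp-high males 31 and 37 held 1080 and 1350 CPM there. No gene passed the test of a difference between limbs, so the larger size in the immobilized limb is not shown to differ.

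Lrrc30 encodes a leucine-rich repeat protein. Immobilized limbs held 72.2 to 185 CPM (median 121) in Dbp-high and 139 to 387 CPM (median 207) in Dbp-low animals, and 8 of 12 Dbp-high animals were below every Dbp-low one. The fitted difference was -1.01 ± 0.16 on the log2 scale (edgeR adjusted p = 0.006) there and -0.66 ± 0.22 in the control limb. The 2 highest Dbp-low values, 306 and 387 CPM, were those of males 15 and 16. With either male left out alone Lrrc30 passed. With both left out and the other 22 animals kept it was at -0.95 ± 0.19 (edgeR adjusted p = 0.1), and with the ranking repeated over 44 animals at -0.91 ± 0.18 (0.05 after rounding, on the other side of the threshold). Arntl, Nfil3, Ppp1r3c and Dbp passed after this new ranking, at -1.35 ± 0.21, -1.01 ± 0.18, -1.15 ± 0.16 and 2.17 ± 0.22. In the control limb no gene then passed, with Arntl at -1.28 ± 0.22 and Bhlhe40 at 0.63 ± 0.16.

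**Figure D4:**
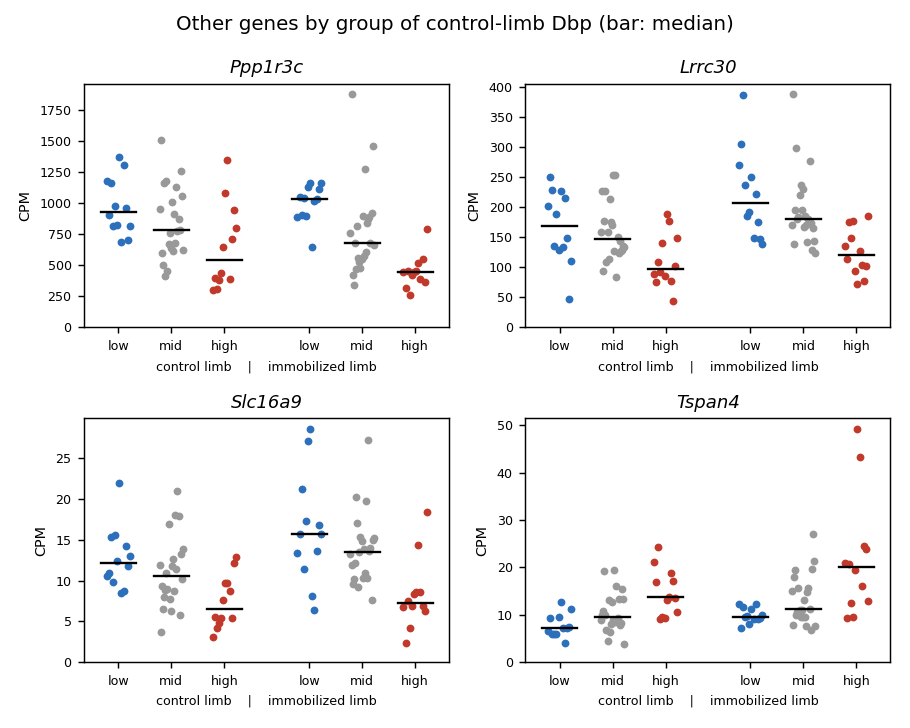
Levels in CPM of Ppp1r3c, Lrrc30, Slc16a9 and Tspan4 by animal, grouped by control-limb Dbp, control limb on the left and immobilized limb on the right of each panel, bar at the median. In the immobilized limb Ppp1r3c medians run from 1030 CPM in Dbp-low through 680 to 446 CPM in Dbp-high animals, and the Tspan4 panel shows males 37 and 31 at 43.4 and 49.2 CPM.

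With control-limb Dbp as a continuous measure over all 46 animals, 10 of 12443 genes (0.0804%) passed in the immobilized limb, among them the 5 above. The values are log2 changes per doubling of Dbp. Dbp itself was at 0.79 ± 0.08 and Arntl at -0.49 ± 0.07 (edgeR adjusted p = 1.8e-09 and 0.00011). Nfil3 was at -0.38 ± 0.07, Ppp1r3c at -0.36 ± 0.08 and Lrrc30 at -0.33 ± 0.05. Per3 passed in this fit, at 0.24 ± 0.04 (edgeR adjusted p = 0.0055). Without the 4 animals whose immobilized limbs stood apart, 5 genes passed, namely Dbp, Arntl, Lrrc30, Per3 and Tspan4. Nfil3 was then at -0.37 ± 0.08 and Ppp1r3c at -0.30 ± 0.08 (edgeR adjusted p = 0.074 and 0.38), so neither passed in this fit.

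The other 4 genes that passed were no clock genes. Tspan4, a tetraspanin, rose by 0.33 ± 0.05 per doubling (edgeR adjusted p = 0.00021). Slc16a9, a carrier of the monocarboxylate transporter family, was at -0.31 ± 0.06 (edgeR adjusted p = 0.018). Tfdp2, a partner of E2F factors, was at -0.21 ± 0.04 and Tnks2, a tankyrase, at -0.14 ± 0.03 (edgeR adjusted p = 0.023 for both). In the comparison of 12 with 12 animals these 4 had adjusted p of 0.068, 0.079, 0.072 and 0.13 by edgeR. Tspan4 ran from 9.27 to 49.2 CPM in Dbp-high against 7.19 to 12.3 CPM in Dbp-low immobilized limbs, and its 2 highest limbs, of males 31 and 37, were those with the highest macrophage sums. Without the 4 libraries that stood apart, Tspan4 was at 0.61 ± 0.15 in the comparison of groups (edgeR adjusted p = 0.38) and at 0.24 ± 0.05 per doubling of Dbp (0.015). Slc16a9, Tfdp2 and Tnks2 were then at -0.26 ± 0.07, -0.16 ± 0.04 and -0.11 ± 0.03 per doubling (edgeR adjusted p = 0.31 each).

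The genes most like Dbp over the 46 control limbs were found by the correlation of log2 CPM after removing sex and number block, among 11000 genes. The points share libraries and depth, and the values are a description. Most alike were Per3 (r = 0.67), Bhlhe40 (0.64), Tspan4 (0.62), Nr1d2, Aimp2 and Ciart (0.58 each), and most opposite were Arntl (-0.81), Nfil3 (-0.71), Cdkn1a, Wsb1 and Cry1 (-0.61 each) and Slc16a9 (-0.59). For these 12 genes the same correlation was computed within the immobilized limbs, against Dbp of the immobilized limb. It gave 0.64, 0.51, 0.68, 0.51, 0.41 and 0.65 for the first 6. For the others it gave -0.77, -0.57, -0.13, -0.47, -0.46 and -0.51. These points share libraries as well and do not compare limbs. Cdkn1a, an inhibitor of the cell cycle, thus had the weakest counterpart in the immobilized limb, where its groups ran from 66.1 to 449 and from 103 to 307 CPM. Wsb1, a substrate receptor of a ubiquitin ligase, was at -0.84 ± 0.18 in the control and -0.92 ± 0.21 in the immobilized limb (edgeR adjusted p = 0.14). In the immobilized limb it passed without the 4 libraries that stood apart, at -1.27 ± 0.21 (edgeR adjusted p = 0.027). It also passed without a low-count filter (edgeR adjusted p = 0.03) and by DESeq2 (adjusted p = 0.0098).

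Whether the contrast differed between limbs or sexes was fitted across all genes. By edgeR, 0 of 11980 genes (0%) passed for the limb difference, with 487 at an unadjusted p of 0.05, and this fit is a description because the control limbs chose the groups. For the sex difference in the immobilized limb, 0 of 12067 (0%) passed, with 481 at an unadjusted p of 0.05; limma voom called 0, with 435 unadjusted. A gene that passed in one limb and not in the other is therefore not shown to differ between them.

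Other pathways were read from lists, each by its counts and its median beside the median of 0.00 over all genes in the control and 0.02 in the immobilized limb. Ppp1r3c was the 1 gene called among all lists outside the clock. Of the 27 tested genes of glucose uptake, glycogen and glycolysis, 17 were above and 10 below 0 in the control limb (median 0.09). In the immobilized limb 8 were above and 19 below 0 (median -0.11). Ppp1r3a, the muscle glycogen-targeting subunit, was at -0.56 ± 0.24 (edgeR adjusted p = 0.41). The 30 fatty acid genes had medians of -0.24 and -0.12 in the control and immobilized limb, with 27 below 0 in the control limb. The slow-fibre markers were also below 0 there in the fold change, though not by the median of their sum. Their part was not tested. The 30 nuclear genes of the respiratory chain had medians of -0.08 and -0.1. In the list of 21 tested genes known to cycle in muscle, 3 were higher and 2 lower at an unadjusted p of 0.05 (median -0.06), beside 6.4% and 4.62% of all genes in the immobilized limb. Tspan4 was at 0.95 ± 0.19 and Coq10b, of the coenzyme Q family, at 0.70 ± 0.18 (edgeR adjusted p = 0.068 and 0.29).

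Glucocorticoid-responsive genes leaned low in both limbs. Of 24 tested, 21 were below 0 in the control limb (median -0.26) and 19 in the immobilized limb (median -0.4), where 9 were lower and 2 higher at an unadjusted p of 0.05 and none passed adjustment. Over all tested genes of the immobilized limb, 4.62% were lower and 6.4% higher at that level. Fbxo32, the atrophy ligase atrogin-1, was 78.7 to 429 CPM (median 240) in Dbp-high and 133 to 979 CPM (median 363) in Dbp-low immobilized limbs, at -0.76 ± 0.21 (edgeR adjusted p = 0.33). Trim63, the ligase MuRF1, was at -0.62 ± 0.19, and Ddit4, an inhibitor of mTORC1 signalling, at -0.95 ± 0.30 (edgeR adjusted p = 0.34 for both). Without the 4 libraries that stood apart, Fbxo32 was at -0.61 ± 0.27, Trim63 at -0.73 ± 0.24 and Ddit4 at -1.58 ± 0.33 (edgeR adjusted p = 0.84, 0.72 and 0.17). In that fit 10 of 24 were lower and 0 higher at an unadjusted p of 0.05 (median -0.5), beside 693 of 11971 genes in both directions together. The 16 genes of muscle atrophy and growth control, which share Fbxo32 and Trim63 with that list, had medians of -0.31 and -0.16, and Gadd45a was at -1.08 ± 0.34 in the immobilized limb (edgeR adjusted p = 0.34).

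Immediate early genes differed in sign between the limbs by estimate. In the control limb 23 of 23 were below 0 (median -0.63, with 6 lower at an unadjusted p of 0.05, as were 2.56% of all genes in that limb), and their summed level was 584 to 3390 CPM (median 1160) in Dbp-high against 734 to 5350 CPM (median 1950) in Dbp-low limbs. The fall was not uniform. Differences in mean log2 CPM there were 0.43 within females and -2.38 within males for Fos, and 0.81 and -1.62 for Junb. They were -0.8 and -1.61 for Atf3, and -0.64 and -0.77 for Egr2. A sex difference was not tested in the control limb. In the immobilized limb 14 of 23 were above 0 (median 0.07), and none was past an unadjusted p of 0.05. The highest sum there, 5830 CPM, belonged to animal 30, the limb with keratin transcripts. Without the 4 libraries that stood apart 5 of 23 were above 0 and the median was -0.35. These 4 came from the Dbp-high group alone and were singled out after their values were seen. The fit without them therefore cannot decide the sign in the immobilized limb.

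Collagens and matrix also changed sign without these libraries. Of the 20 tested, 19 were above 0 in the immobilized limb (median 0.34), against 4 of 20 in the control limb (median -0.12), and summed levels of 16000 and 12400 CPM in males 37 and 31 were the highest, beside 1540 to 9510 CPM in Dbp-low limbs. Timp1, an inhibitor of matrix proteases, was at 1.84 ± 0.71 (edgeR adjusted p = 0.38). Without the 4 libraries Timp1 was at 0.50 ± 0.66, 2 of 20 were above 0 and the median was -0.27. The macrophage and adipocyte marker lists went with them, from medians of 0.59 and 0.9 over all animals to -0.15 and -0.77 without the 4. High sums of these markers had helped to single out the 4 libraries, so a fall without them was built in. Dbp-low limbs with high sums were kept, among them female 1 with 9510 CPM of matrix genes. Of the 17 tested heat shock and cold-inducible genes, 14 were above 0 in the immobilized limb (median 0.14, with 4 higher at an unadjusted p of 0.05, among them Hspb1 at 0.53 ± 0.20 and Hspa1b at 1.08 ± 0.46), and 11 without the 4 libraries (median 0.19, with Hspb1 at 0.43 ± 0.24 and Hspa1b at 0.77 ± 0.45). With all animals kept, 6.4% of all tested genes were higher at that level in the immobilized limb. In the control limb 14 of the 17 were below 0 (median -0.11), with 3 lower at an unadjusted p of 0.05, as were 2.56% of all genes. Hspb1 was at -0.11 ± 0.19 and Hspa1b at -0.72 ± 0.35 there. The immobilized-limb difference in mean log2 CPM of Hspb1 was 0.08 within females and 1.21 within males.

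**Figure D5:**
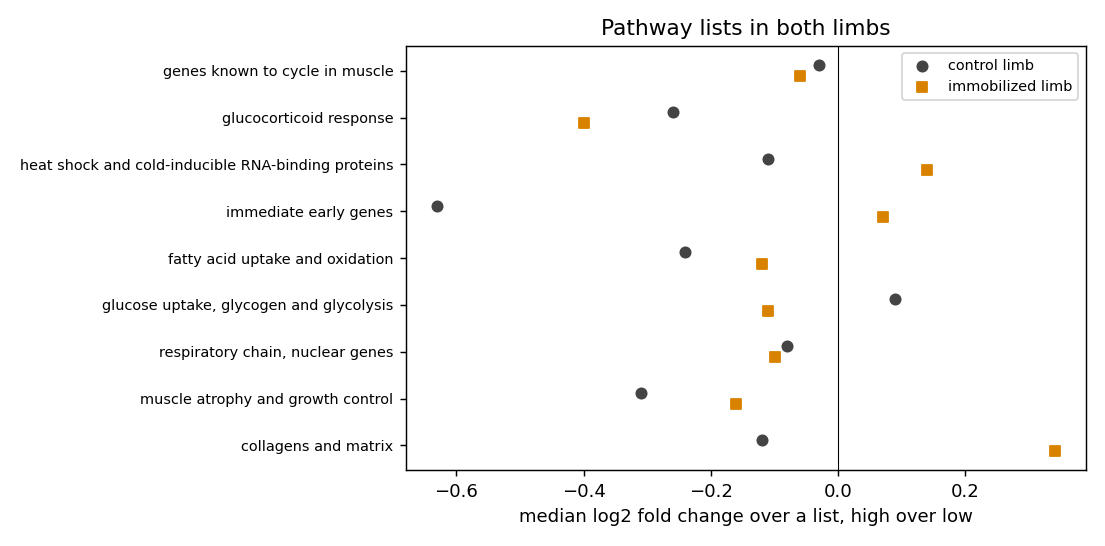
Median log2 fold change of the tested genes of 9 pathway lists, Dbp-high over Dbp-low, in the control limb (circles) and the immobilized limb (squares), over all 24 animals. The glucocorticoid list lies at -0.26 and -0.4, and the immediate early and matrix lists lie left of 0 in the control limb and right of 0 in the immobilized limb, at 0.07 and 0.34.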

How the data were processed

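Ribosome-depleted stranded total RNA of both gastrocnemius muscles was sequenced. The deposited values are raw read counts per gene symbol, whole numbers, in 1 table per sex, as the authors made them. Aligner, counting tool, strand setting and genome build were not given in the sources used here. Both tables list 32544 symbols, and 0 rows name no gene. Total counts set the precision of low genes, and no molecular identifiers were stated. No 2 of the 46 ranked control libraries held identical counts.

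Dbp CPM used column sums. Genes were kept by filterByExpr, scaled by TMM and fitted with edgeR 4.0.16 (R 4.3.3) by quasi-likelihood, with sex and number block as covariates and Benjamini-Hochberg adjustment over all tested genes at 0.05. The control limb was described, with Dbp left out, and the immobilized limbs of the same 24 animals were tested. Each animal is a separate replicate. The animal number of the labels pairs the limbs. Correlations used log2(CPM + 0.5). Alternatives used DESeq2 1.42.0, limma 3.58.1, other filters, scalings, rankings, group sizes and animals.

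Named are Dbp, Per3, Arntl, the tested clock genes, up to 12 called genes per direction in the immobilized and 8 in the control limb with an average log2 CPM of at least 1, up to 3 genes per pathway list, and the 12 genes of the likeness ranking. Tfdp2 and Tnks2, and the 4 libraries that stood apart with their keratin genes, were singled out after their values were seen. A few genes covered by this choice are left unreported. The members and lists were chosen with earlier results of these data known. Motif positions come from RefSeq promoter windows on GRCm38.p6.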

Additional observations from a re-analysis of the deposited data

How the results depend on the processing

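In the immobilized limb Dbp kept its direction and its side of the threshold under all alternatives. The 5 genes called became 72 without a low-count filter (57 higher, 15 lower) and 33 with a mean of at least 1 CPM (24 and 9), counts that included keratin genes. With female 30 also left out, an alternative chosen after seeing the data, they became 7 and 5. DESeq2 called 34 (14 higher, 20 lower), limma voom 8, no covariates 8 (3 higher), 15 against 15 animals 8 (3 higher), the continuous measure 10 (3 higher), no males 15 and 16 8 (3 higher) and all 56 animals ranked 210 (171 higher, 39 lower). Ranking within each sex and number block, again 12 against 12 animals, called 1, Dbp. There Arntl was at -0.99 (adjusted p 0.78 by edgeR), Nfil3 at -0.91, Ppp1r3c at -0.94 and Lrrc30 at -0.81 (0.22 each). Lrrc30 was also lost without covariates at -0.89 (0.11). Leaving out 1 animal gave 5 to 12 calls, with 12 without male 38 and 9 without male 16. In the control limb the 3 calls became 14 by DESeq2 (7 higher, 7 lower), 12 on the continuous measure, 1 at 10 against 10 animals, 0 when ranked within sex and block and 0 without males 15 and 16, and 1 to 4 without 1 animal, with 1 (Arntl) without female 1. The cause was not tested.

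Signs turned in the immobilized limb for estimates near 0: Rora at 0.07 (10 against 10), 0.03 (15 against 15), 0.03 (within sex and block) and 0.01 (continuous), Tef at 0.10 without covariates, 0.04 and 0.02 (within sex and block, continuous), Bhlhe41 at -0.03 (TMM ranking), -0.15 (all 56) and -0.10 (without males 15 and 16), Csnk1d at -0.01 and 0 (within sex and block, continuous), Csnk1e at -0.02 (TMM ranking), Gsk3b at -0.02 (continuous) and -0.15 (all 56), and Usp2 at -0.19 (all 56). Leaving out 1 animal moved Rora from -0.12 to 0, Bhlhe41 from -0.08 to 0.19, Tef from -0.09 to 0.06, Csnk1d from -0.02 to 0.08, Gsk3b from -0.01 to 0.08 and Nr4a3 from -0.08 to 0.85. Without animals 30, 31, 37 and 47, chosen after seeing the data, 5 genes passed, and Rora was at 0.14, Tef at 0.26, Csnk1d at -0.17, Gsk3b at -0.07, Btrc at 0.01, Fbxw11 at 0.06, Ier3 at -0.06 and Sparc at -0.13.

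The limb difference had 0 calls with the animal number as a replicate block, as without this pairing (499 and 487 genes at an unadjusted p of 0.05), and the block changed no call. Total counts from 1716485 to 9995936 per library limit the precision of genes of few counts.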
